A study of Homo sapiens with 6 samples.

Results

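The metallothionein genes and MTF1, the transcription factor that drives them, were followed in Hep3B cells with and without knockdown of NXN. The 9 genes were taken by name: MT1A, MT1E, MT1F, MT1G, MT1H, MT1M, MT1X and MT2A, which encode metallothioneins, and MTF1. All 9 were found, by Ensembl identifier, among the 23406 features of the RNA sequencing tables. Of them, 3 had more than 1 count in any library (MT2A, MT1X and MTF1), and 4 had 0 counts in every library.

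Hep3B is a human hepatocellular carcinoma line. The 6 libraries were 3 of shControl cells and 3 of shNXN cells, each group with 1 library from day 7, 1 from day 9 and 1 from day 11. The genotype labels were WT for shControl and NXN knockdown for shNXN, and both groups received an shRNA lentivirus and puromycin selection. NXN encodes nucleoredoxin, a redox-active protein, and the profiling asked how expression differed when it was lowered. The labels name neither the shRNA sequence nor the origin of the cells of each day, whether from separate transductions or from 1 selected culture, so the p-values measure the spread between these libraries, which may be technical. It is also not clear from the labels whether the days were counted from transduction or from the end of selection.

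Metallothioneins are small, cysteine-rich proteins that bind zinc, copper and cadmium, and the liver is one of the tissues in which they are most abundant. MTF1 senses free zinc through its zinc fingers and binds metal response elements, short motifs that stand in several copies before metallothionein genes, so that metallothionein mRNA is commonly read as a measure of available zinc. Glucocorticoids and oxidative stress also raise these genes. Zinc leaves the cytosol through SLC30 transporters and enters it through SLC39 transporters, and SLC30A1, the exporter of the plasma membrane, is itself a target of MTF1.

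NXN, the targeted gene, was at 181, 138 and 143 CPM (counts scaled to library size, with TMM factors) in shControl cells on days 7, 9 and 11 and at 42.7, 47.5 and 39.5 CPM in shNXN cells. The groups did not overlap, and the shNXN mean was 0.281 times that of shControl. Library totals lay between 15349382 and 16332589 counts. Each of the 11 hepatocyte and hepatoma markers examined was detected in every library, whereas THY1, CD3E and VWF, markers of fibroblasts, T cells and endothelium, had 0 counts throughout, and PTPRC and CDH5, of blood and endothelium, at most 3. Other fibroblast markers were detected at low levels, with up to 43 counts for COL1A1, 12 for COL1A2 and 100 for PDGFRB (2.40 to 6.44 CPM). Of the myeloid markers, CD14 had up to 143 counts and LYZ 95.2 to 281 CPM. Across 12740 tested features with a known transcript, the log2 fold change between the groups followed GC content (Spearman rho = 0.79 over features of the same 6 libraries, as a description), and for this reason values after a GC correction stand beside the results below.

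The coding sequences show how alike the metallothioneins are, which bears on how reads could be assigned to them. Each of the 8 genes has a coding sequence of 186 bases with 61 codons before the stop, 20 of them for cysteine (principal GENCODE 29 transcripts, GRCh38). Those of the 4 metallothioneins with at least 1 count are given 5′ to 3′, with the cysteine codons in capitals.
MT2A: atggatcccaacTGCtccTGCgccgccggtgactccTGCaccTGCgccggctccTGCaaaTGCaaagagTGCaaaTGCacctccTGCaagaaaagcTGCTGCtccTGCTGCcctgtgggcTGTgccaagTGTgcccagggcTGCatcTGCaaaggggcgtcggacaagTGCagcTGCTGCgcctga
MT1X: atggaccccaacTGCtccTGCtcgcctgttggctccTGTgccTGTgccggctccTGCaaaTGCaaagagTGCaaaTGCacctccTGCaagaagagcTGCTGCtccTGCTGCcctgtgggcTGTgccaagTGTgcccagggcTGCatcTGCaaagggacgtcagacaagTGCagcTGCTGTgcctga
MT1G: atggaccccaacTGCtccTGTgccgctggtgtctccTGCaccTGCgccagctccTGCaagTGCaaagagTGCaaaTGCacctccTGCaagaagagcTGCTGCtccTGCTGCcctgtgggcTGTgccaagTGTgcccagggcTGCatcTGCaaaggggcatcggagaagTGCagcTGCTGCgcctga
MT1E: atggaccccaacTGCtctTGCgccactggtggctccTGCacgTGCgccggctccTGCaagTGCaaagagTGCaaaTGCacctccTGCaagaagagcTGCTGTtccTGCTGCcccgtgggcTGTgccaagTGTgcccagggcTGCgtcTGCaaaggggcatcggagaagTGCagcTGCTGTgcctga
MT2A and MT1X are identical at 172 of 186 positions (92.5%), with a longest shared run of 63 bases, and MT1G and MT1X share a run of 96 bases. Of the windows of 50 bases in the principal MT1X transcript, 45.1% also occur in another gene, against 4.88% for MT2A and 20.2% for MT1G. A share of the reads of MT1X can therefore match several genes, and the counts of single metallothioneins are less certain than their sum. The genes sharing windows with MT1X include the pseudogenes MT1P1, MT1P3 and MT1XP1, which are not among the features. Reads given to them would lie outside the sum.

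The genes lie on 2 chromosomes. On GRCh38 (GENCODE 29), MT2A spans chr16:56608199-56609497 and MT1X spans chr16:56682424-56684196, both on the plus strand, at the ends of the group of 8, and MT1E, MT1M, MT1A, MT1F, MT1G and MT1H lie between them in that order. MTF1 spans chr1:37809567-37859620 on the minus strand. Upstream sequences of MT2A, MT1X and MT1H are shown because MTF1 acts there, with MT1H as a gene that had no counts. Each run covers the 250 bases before the RefSeq transcription start (GRCh38.p14, plus strand, 5′ to 3′), at chr16:56608334-56608583 for MT2A, chr16:56682220-56682469 for MT1X and chr16:56669564-56669813 for MT1H. The GENCODE span begins upstream of this window for MT2A and within it for MT1X, so both windows overlap the annotated gene. Capitals mark the core of the metal response element, searched as TGCACNC or TGCGCNC on both strands.
MT2A: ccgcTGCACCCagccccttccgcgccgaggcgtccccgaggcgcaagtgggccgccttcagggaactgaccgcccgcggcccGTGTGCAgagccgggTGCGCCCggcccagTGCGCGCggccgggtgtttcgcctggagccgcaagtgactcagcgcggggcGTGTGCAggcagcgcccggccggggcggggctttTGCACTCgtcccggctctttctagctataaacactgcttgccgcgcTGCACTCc
MT1X: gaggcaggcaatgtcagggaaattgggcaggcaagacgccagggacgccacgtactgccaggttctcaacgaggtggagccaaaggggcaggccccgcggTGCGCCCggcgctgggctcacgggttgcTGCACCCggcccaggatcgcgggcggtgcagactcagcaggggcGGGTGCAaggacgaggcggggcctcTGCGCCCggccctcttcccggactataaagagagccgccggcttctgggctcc
MT1H: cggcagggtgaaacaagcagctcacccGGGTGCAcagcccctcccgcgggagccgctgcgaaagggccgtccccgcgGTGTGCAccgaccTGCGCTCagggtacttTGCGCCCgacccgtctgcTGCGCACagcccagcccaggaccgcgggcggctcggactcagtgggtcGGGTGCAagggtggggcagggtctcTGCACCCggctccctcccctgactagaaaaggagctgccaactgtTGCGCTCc
The core occurred 7 times before MT2A, 4 times before MT1X and 8 times before MT1H. In the last 100 bases before the start, MT2A held 3 of its matches, at 88, 54 and 8 bases. MT1H held matches there at 78, 53 and 8 bases, and MT1X at 78 and 53 bases. Of 35116 promoters of the same length, 24.8% held at least 1 match, 0.37% at least 4 and 0.0313% at least 7. The window before MTF1 had 0 matches. These matches are letters and not measured binding. Upstream sequences of MT1A, MT1E, MT1F, MT1G and MT1M were not used here.

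Expression of the family rested on MT2A and MT1X. MT1A, MT1F, MT1H and MT1M had 0 of the 96133381 counts of the 6 libraries, which allows a level of up to 0.0312 CPM over all libraries (3 counts, counting error only), or between 0.184 and 0.195 CPM in a single library. MT1G had 1 count in the shNXN library of day 7 and 0 counts in the others. MT1E had 1 count in the shControl library of day 7 and 0 in the rest. For neither gene can a difference between the groups be given at this depth. MT1B, MT3, MT4 and MT1HL1, further metallothionein genes, were at 0 in all 6 libraries.

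**Figure D1:**
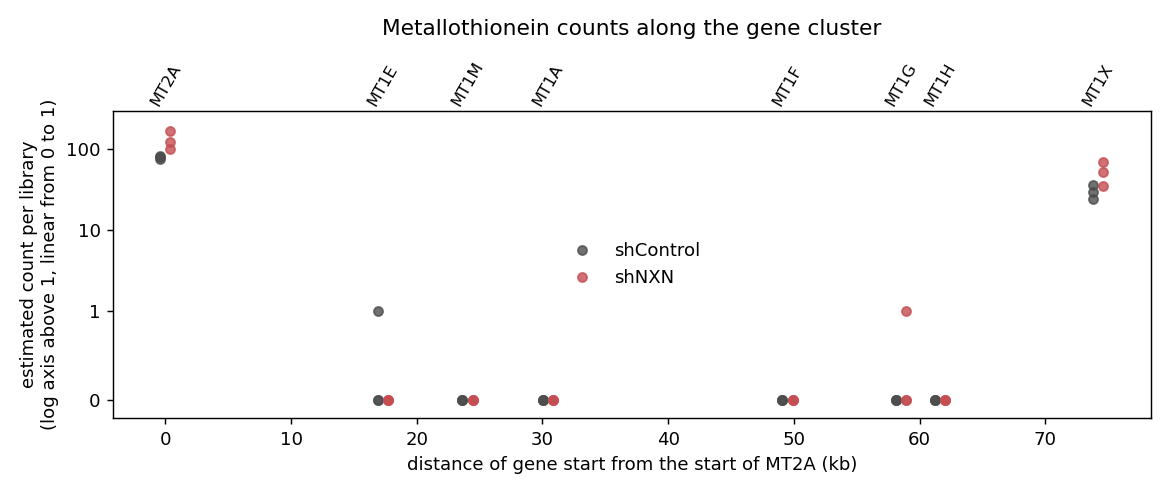
Estimated count of each metallothionein gene in each library (vertical axis, logarithmic above 1 and linear from 0 to 1), placed by the distance of its start from that of MT2A in kilobases (horizontal axis). Points are libraries, grey for shControl and red for shNXN, with equal values lying over each other. MT2A and MT1X, at the 2 ends, carried between 24 and 170 counts a library, and the 6 genes between them 0 or 1.

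MT2A, the main metallothionein of most human cells, was at 5.51, 4.92 and 4.72 CPM in shControl cells on days 7, 9 and 11 and at 7.42, 10.4 and 6.44 CPM in shNXN cells. The 3 shNXN libraries lay above the 3 shControl libraries, and the day 9 shNXN library was the highest. These levels rested on 84, 80 and 77 counts in shControl cells and 122, 170 and 100 counts in shNXN cells. The exact Poisson 95% interval of the counts was 63.4 to 99.6 for the shControl library of day 9 and 145 to 198 for the shNXN library of that day, while on day 11 the intervals overlapped (60.8 to 96.2 against 81.4 to 122). The mean was 5.05 ± 0.408 CPM in shControl and 8.10 ± 2.07 CPM in shNXN cells (SD, n = 3), a ratio of 1.60. This difference did not pass the test, with a log2 fold change of 0.68 (SE 0.26, adjusted p = 0.129 over all features by the edgeR quasi-likelihood test). In these bulk libraries, RNA per cell and the number of expressing cells cannot be told apart.

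MT1X, a type 1 metallothionein, was at 2.36, 1.85 and 1.47 CPM in shControl cells on days 7, 9 and 11 and at 3.23, 4.29 and 2.26 CPM in shNXN cells. Here the groups overlapped, since the shNXN library of day 11 lay below the shControl library of day 7. The counts behind these levels were 36, 30 and 24 in shControl cells and 53, 70 and 35 in shNXN cells. MT1X had 1.89 ± 0.446 CPM in shControl and 3.26 ± 1.02 CPM in shNXN cells (SD, n = 3). Its log2 fold change of 0.78 (SE 0.35) did not pass the test (edgeR, adjusted p = 0.167). On the FPKM scale (fragment counts divided by length and depth, as deposited) the groups of MT1X did not overlap. The values were 9.07 to 12.1 in shControl and 12.7 to 26.1 in shNXN cells. FPKM summed over all features was also higher in shNXN cells, at 688017 to 774345 a library against 631135 to 678216 in shControl cells. The share of all features that separate on this scale was not counted, so the separation of MT1X has no background to compare with.

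MTF1 was at 14.7, 15.9 and 17.9 CPM in shControl cells on days 7, 9 and 11 and at 18.0, 18.7 and 19.7 CPM in shNXN cells. The lowest shNXN library lay just above the highest shControl library, and within each group the level was highest on day 11. The log2 fold change was 0.22 (SE 0.18), with an adjusted p of 0.41 from edgeR.

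**Figure D2:**
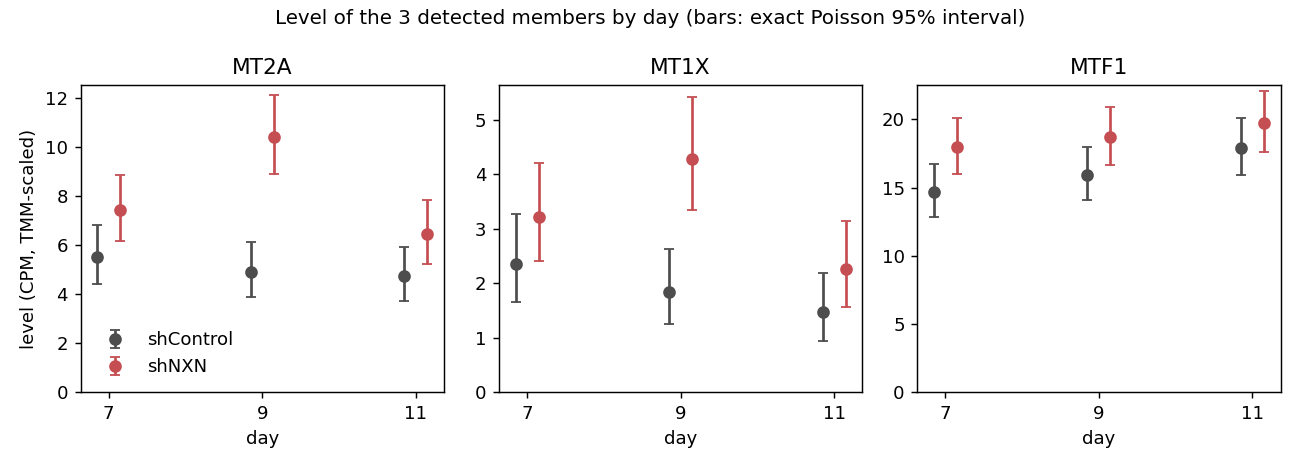
Level of MT2A, MT1X and MTF1 (vertical axes, TMM-scaled CPM) on each day (horizontal axes), with 1 library per group and day, grey for shControl and red for shNXN. Bars are exact Poisson 95% intervals of the counts and cover counting error only. On every day the shNXN point lies above the shControl point for each gene, with the widest gap for MT2A and MT1X on day 9.

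Of the 3 members with enough counts to be tested, 0 passed an adjusted p of 0.05 in edgeR, where 3.39% of the 14071 tested features did (0.185% higher and 3.21% lower in shNXN cells). At an unadjusted p under 0.05 it was 1 of 3 (MT2A), against 32.9% of features. DESeq2 also called 0 of the 3, and 24.0% of the 13793 features to which it gave an adjusted p. With the replicate number, which marks the day, as a block, 23.3% of features passed and again 0 of the 3 members, with adjusted p values of 0.0833 for MT2A, 0.0966 for MT1X and 0.285 for MTF1 from edgeR. MT2A and MTF1 were the members whose CPM in every shNXN library exceeded that in every shControl library, a separation found in this direction for 19.0% of features. With 3 libraries against 3, an exact permutation test of a single gene cannot give a two-sided p below 0.1.

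The summed level of the 8 metallothioneins, which does not depend on how reads were shared among them, was 7.93, 6.77 and 6.20 CPM in shControl cells on days 7, 9 and 11 and 10.7, 14.7 and 8.70 CPM in shNXN cells. All 3 shNXN sums lay above all 3 shControl sums, and in both groups the sum was lowest on day 11. The group means were 6.97 ± 0.886 and 11.4 ± 3.06 CPM (SD, n = 3), a ratio of 1.63, and the means of the log2 sums differed by 0.68. By day, the shNXN sum was 1.35 times the shControl sum on day 7, 2.17 times on day 9 and 1.40 times on day 11. Without the shNXN library of day 9 the log2 difference was 0.48, and with MT2A left out of the sum it was 0.76.

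The proportion between the 2 expressed metallothioneins differed little between libraries. MT2A supplied 69.4%, 72.7% and 76.2% of metallothionein counts in shControl cells on days 7, 9 and 11 and 69.3%, 70.8% and 74.1% in shNXN cells. The group means were 72.8 ± 3.41% and 71.4 ± 2.43% (SD, n = 3), and the Wilson 95% intervals of the single libraries, the widest from 63.7% to 80.2% on day 9 in shControl cells, all overlapped. In both groups the share was lowest on day 7 and highest on day 11.

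Per length, MT2A and MT1X stood close together. In FPKM, MT2A had 9.76 ± 0.655 in shControl and 16.5 ± 4.50 in shNXN cells, and MT1X had 10.1 ± 1.74 and 19.5 ± 6.74 (SD, n = 3). The ratio of MT2A to MT1X in FPKM was 0.98 ± 0.109 in shControl and 0.865 ± 0.104 in shNXN cells. That order depended on the length used: with counts per kilobase of the principal GENCODE transcript (786 bases for MT2A and 450 for MT1X), the ratio was 1.57 ± 0.253 in shControl cells. The deposited counts, FPKM and library totals together implied a length of 162 to 203 bases for MT1X, against 483 to 539 for MT2A. Among tested features, 49.3% had a lower mean FPKM than MT2A, 52.3% a lower one than MT1X and 21.9% a lower one than MTF1. In CPM, which is not scaled to length, the order was the reverse, with 24.0% of features below MT2A, 13.7% below MT1X and 40.1% below MTF1.

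For MTF1, the deposited tables pointed in opposite directions. Its estimated counts were 224, 259 and 292 in shControl cells on days 7, 9 and 11 and 295, 305 and 306 in shNXN cells, while its FPKM values were 1.90, 3.66 and 3.97 in shControl and 3.10, 2.66 and 2.48 in shNXN cells. On day 7 the shNXN library was higher on both scales, whereas on days 9 and 11 it was higher in counts and lower in FPKM. The length implied for MTF1 was 7691, 4341 and 4503 bases in the shControl libraries and 5949, 7135 and 7673 bases in the shNXN libraries, a range of 1.77 times. Over 11519 features with an FPKM of at least 1 in every library, the median of this range was 1.25 times, and 19.7% had a wider one than MTF1. In limma on log2(FPKM + 1), the log2 difference of MTF1 was -0.12 (SE 0.23, adjusted p = 0.735), beside a median of 0.13 over all tested features on that scale. The direction of MTF1 therefore depended on the table used, and neither table gave a call.

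**Figure D3:**
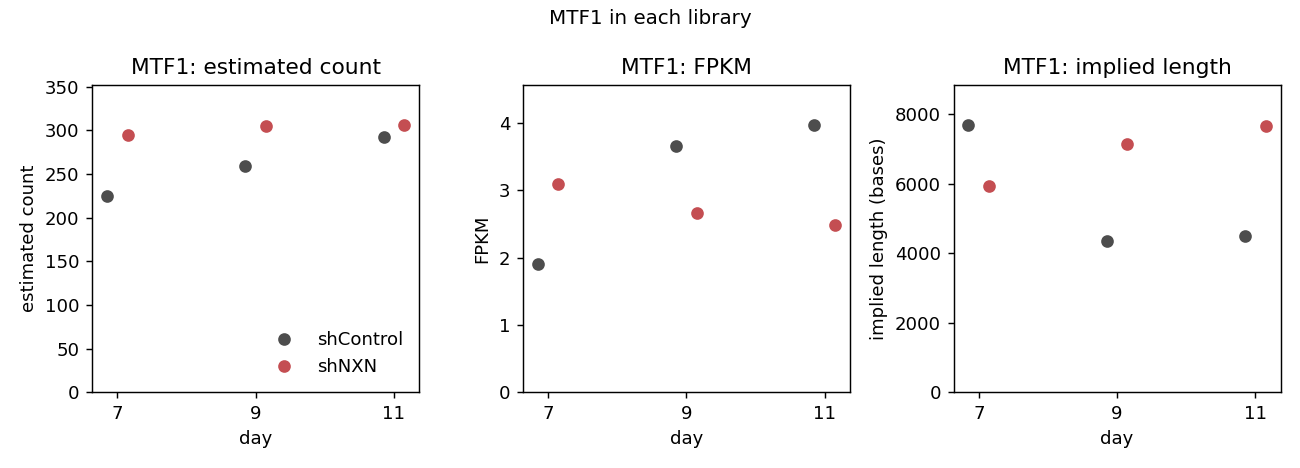
MTF1 in each library by day (horizontal axes): estimated count, FPKM, and the transcript length in bases that the count, FPKM and library total imply (vertical axes). Grey points are shControl and red points shNXN libraries. Counts are higher in shNXN on each day, FPKM is lower in shNXN on days 9 and 11, and the implied length runs from 4341 to 7691 bases.

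The difference of MT2A and MT1X between the groups was smaller after a GC correction. The longest transcripts of MT2A and MT1X have a GC content of 53.9% and 53.7%, above that of 66.5% and 66.0% of tested features, and that of MTF1 has 46.7%, near the median of 48.4%. For MT1X the longest transcript has 1727 bases and the principal one 450, so the correction may rest on a transcript other than the one counted. After each library's GC trend was removed and the median of all features was set to 0, the log2 fold change was 0.36 for MT2A (SE 0.23, edgeR adjusted p = 0.496), 0.46 for MT1X (edgeR adjusted p = 0.535) and 0.32 for MTF1 (edgeR adjusted p = 0.365). The summed metallothionein level then differed by 0.37 on the log2 scale. Without that centring, the correction shifted the median of all features to -0.19, and the log2 fold changes were 0.17 for MT2A, 0.27 for MT1X and 0.13 for MTF1. In these edgeR fits 0 of the 3 members passed, against 0.0355% of features with the centred correction, 0.711% with the centred correction and the replicate block, and 0.0426% without the centring. At an unadjusted p under 0.05 it was again 0 of the 3 in each, against 17.4%, 22.1% and 18.7% of features. MTF1, whose GC content is lower, did not shrink under the centred correction.

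**Figure D4:**
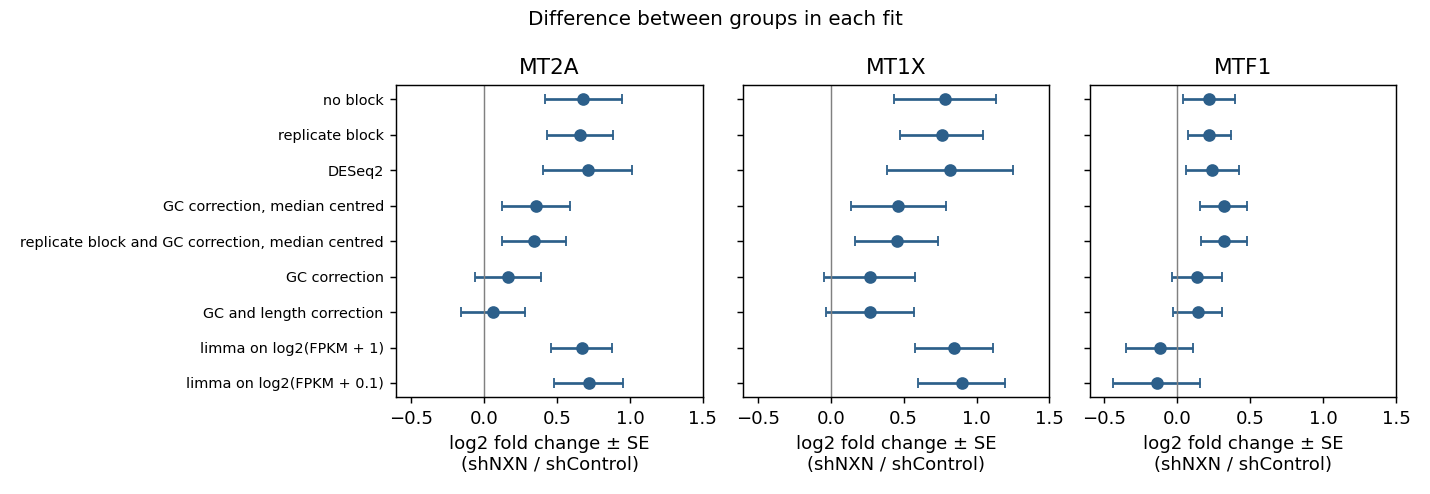
Log2 fold change of shNXN over shControl (horizontal axes) with its standard error (bars) for MT2A, MT1X and MTF1 in each of 9 fits (vertical axis). Without GC correction MT2A lies between 0.66 and 0.72 and MT1X between 0.76 and 0.90, and with one they lie between 0.06 and 0.46. MTF1 lies below 0 in the fits on FPKM.

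Levels of the members were also compared between days with the group in the model. Of the 3 members, 0 passed edgeR's F test over the day terms, with adjusted p values of 0.612 for MT2A, 0.438 for MT1X and 0.706 for MTF1, and 0% of all features passed (3006 at an unadjusted p under 0.05). MT1X had a log2 difference of -0.60 between days 11 and 7, MT2A -0.21 and MTF1 0.21. Whether the difference between shNXN and shControl cells itself changed with the day could not be tested, since each day had 1 library per group.

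Zinc exporters were called lower in shNXN cells, in numbers that depended on the fit. Of the 8 SLC30 genes tested, 1 passed without the block (SLC30A9, lower) and 5 with it, all lower, where 3.21% and 17.0% of features were called lower. DESeq2 called 5 lower and 1 higher, where it called 17.1% of features lower and 6.88% higher. Their median log2 fold change was -0.80, beside 0.03 over all features. SLC30A1, the MTF1 target that exports zinc from the cell, was at 66.0, 32.3 and 53.9 CPM in shControl cells on days 7, 9 and 11 and at 23.1, 20.5 and 19.0 CPM in shNXN cells. The log2 fold change of SLC30A1 was -1.28 (SE 0.27, edgeR adjusted p = 0.0532, 0.0249 with the replicate block). SLC30A9, a transporter of intracellular membranes, had 137 ± 9.09 CPM in shControl and 59.5 ± 17.3 CPM in shNXN cells (SD, n = 3), a log2 fold change of -1.20 (edgeR adjusted p = 0.0456). SLC30A6, a transporter of the Golgi, had a log2 fold change of -1.66 (edgeR adjusted p = 0.102, 0.0238 with the block).

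The lower values of these exporters went with low GC content. The transcripts of SLC30A1, SLC30A6 and SLC30A9 had between 37.7% and 39.1% GC. After the centred GC correction, the log2 fold change was -0.02 for SLC30A1 (edgeR adjusted p = 0.985), -0.19 for SLC30A9 and -0.61 for SLC30A6, and the median of the 8 exporters was 0.25. In edgeR 0 of the 8 then passed, with or without the block. At an unadjusted p under 0.05 it was 1 with the block and 0 without it, against 22.1% and 17.4% of features.

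Zinc importers were called in both directions with the block. Of the 12 SLC39 genes tested, 0 passed without the block in edgeR (5 at an unadjusted p under 0.05, against 32.9% of features). With the block 2 were higher and 4 lower, where 6.28% of features were called higher and 17.0% lower. DESeq2 called 1 higher and 4 lower, against 6.88% and 17.1% of features. The median log2 fold change was 0.10. SLC39A10, an importer of the plasma membrane that MTF1 is known to repress, was at 72.8, 86.3 and 141 CPM in shControl cells on days 7, 9 and 11 and at 11.2, 7.42 and 52.3 CPM in shNXN cells. In both groups its day 11 library was the highest. Its log2 fold change was -2.08 (SE 0.72, edgeR adjusted p = 0.107) and -2.53 with the replicate block (edgeR adjusted p = 0.022). SLC39A6 and SLC39A8 passed with the block and not without it, at -0.58 (edgeR adjusted p = 0.027) and -1.01 (edgeR adjusted p = 0.0276). After the centred GC correction SLC39A10 stood at -1.10, SLC39A8 at -0.72 and SLC39A6 at 0.15, and 0 of the 12 passed in edgeR with or without the block. At an unadjusted p under 0.05 it was 5 with the block and 4 without it, against 22.1% and 17.4% of features.

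**Figure D5:**
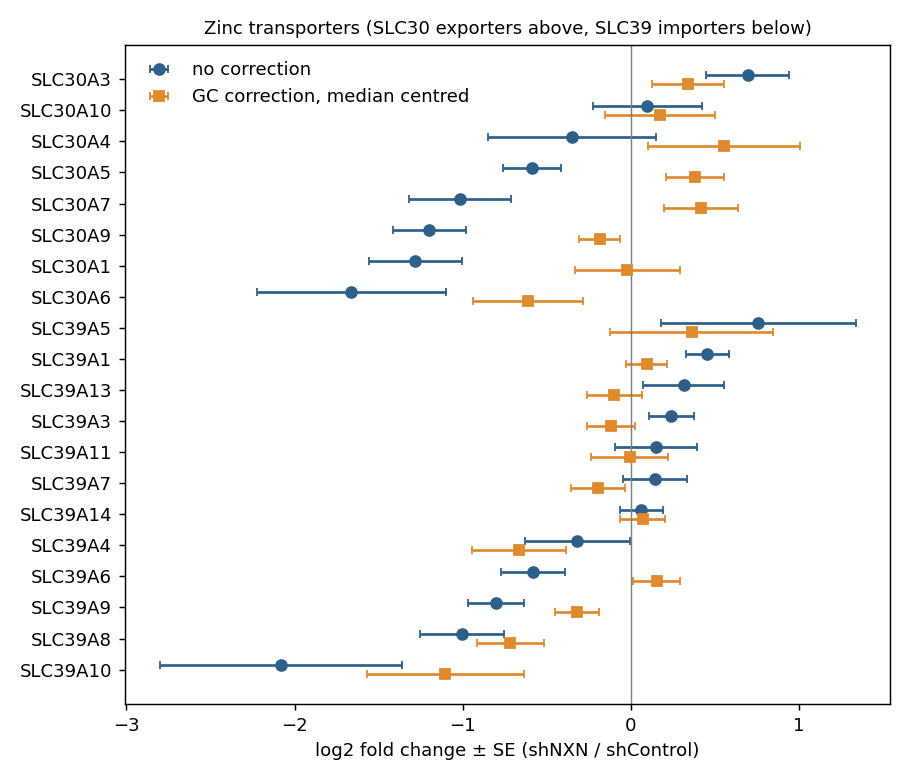
Log2 fold change of shNXN over shControl (horizontal axis) with its standard error for the 20 zinc transporters tested (vertical axis), SLC30 exporters above and SLC39 importers below. Blue circles are without correction and orange squares with the centred GC correction. Most exporters left of 0 without correction lie near or right of 0 with it, SLC30A1 among them (-1.28 and -0.02).

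Of the 7 other reported targets of MTF1 examined (SLC30A1, SLC30A10, SLC39A10, SLC40A1, GCLC, SELENOW and PGF), 0 passed in edgeR without the block, against 3.39% of features. At an unadjusted p under 0.05 it was 4 of the 7, against 32.9% of features. With the block 3 were lower, against 17.0% of features, while DESeq2 called 4 lower, against 17.1%. The 3 were SLC30A1 and SLC39A10, given above, and GCLC, the catalytic subunit of the enzyme that begins glutathione synthesis. Since MTF1 is known to repress SLC39A10, a lower level does not have the same meaning for all 3. GCLC had 65.9 ± 6.25 CPM in shControl and 42.3 ± 5.18 CPM in shNXN cells (SD, n = 3), a log2 fold change of -0.64 (SE 0.16, edgeR adjusted p = 0.0649, 0.0424 with the block). After the centred GC correction its log2 fold change was -0.28 (edgeR adjusted p = 0.357). None of the 7 was called higher in edgeR, without or with the block, or in DESeq2, where 0.185%, 6.28% and 6.88% of features were.

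Genes beside the metallothionein cluster on chromosome 16 were also examined. Of 9 neighbours, 6 were tested, with a median log2 fold change of 0.04, and 1 (NUDT21) passed in edgeR without the block, against 3.39% of features. NUDT21, a factor of mRNA 3′ end processing, had 100.2 ± 21.5 CPM in shControl and 37.8 ± 12.1 CPM in shNXN cells (SD, n = 3), a log2 fold change of -1.41 (edgeR adjusted p = 0.0473). After the centred GC correction its log2 fold change was -0.18, and 0 of the 6 passed in edgeR (1 at an unadjusted p under 0.05, against 17.4% of features). NUDT21 overlaps OGFOD1 on the other strand, and reads from the overlap cannot be told apart unless strand was used in counting, which is not stated. GNAO1 and SLC12A3 had at most 3 counts in any library, and CETP had 0.

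Over the 6 libraries, MT2A and MT1X varied together (Pearson r = 0.96 of log2 CPM), and MTF1 less so with either (r = 0.50 with MT2A and 0.27 with MT1X). The 5 features whose levels were most like the metallothionein sum, among 12294 with a symbol and a mean of at least 1 CPM, were SARS2 (r = 0.999), BRMS1 (r = 0.998), DGCR2 (r = 0.995), TSPEAR-AS2 (r = 0.993) and TRUB2 (r = 0.991). With 6 libraries, 262 features had r above 0.95, so these values are a description of shared libraries, group and depth. The GC content of the 5 lay between 51.7% and 61.6%, above the median of 48.4%, and whether GC content plays a part in the likeness was not tested.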

How the data were processed

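RNA of 6 Hep3B libraries was sequenced by the authors after SMARTER mRNA library preparation. The deposited tables hold estimated counts and FPKM values per feature. The aligner, counter and annotation are not given in the sources used here. The submitters' processing notes name the builds GRCm38 and mm10 (mouse), although the identifiers are human Ensembl genes. Estimated counts arise when reads matching several transcripts are shared out, so counts of paralogs are uncertain. In each library between 15.1% and 18.8% of features had a count that was not whole, but the metallothionein counts were whole numbers throughout. How reads matching several metallothioneins were treated is not stated. There were 0 columns without a sample.

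Groups and days came from the sample titles. Rounded counts entered edgeR 4.0.16 in R 4.3.3 (TMM, filterByExpr, quasi-likelihood test, 14071 features, Benjamini-Hochberg adjustment, threshold 0.05). Standard errors are the log2 fold change divided by the square root of F. The family sum adds the TMM-scaled CPM of the metallothioneins and has no test, since its members were chosen by name. Differences of the family sum by day used its log2 without an added constant, and the likeness of other features to the sum used log2(CPM + 0.5). Replicate numbers follow the days, and the deviations of same-numbered libraries correlated (r = 0.36, 0.34 and 0.48), so the block pairs the libraries. Replicates differed by more than sampling noise (chi-square per gene from 20.1 to 77.8).

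Alternatives used DESeq2 1.42.0, RLE factors, library size only, other filters, limma 3.58.1 on log2(FPKM + 1) and log2(FPKM + 0.1), left-out libraries, and offsets for each library's trend with GC content, or GC content and length, of the longest GENCODE 29 transcript (natural spline, 5 degrees of freedom). Transcripts were known for 90.5% of tested features. Such an offset removes any group difference that follows GC content, whatever its origin. Its centred form, in which each library's residual median is 0, was chosen after seeing the data. The edgeR fits between groups, without and with the block or the uncentred offsets, were checked on simulated counts. Implied lengths were computed as count divided by FPKM and library total. Figures were drawn with matplotlib 3.10.9, and intervals computed with scipy 1.17.1 under Python 3.11.15.

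Some items are not reported here. The members and gene lists were chosen with earlier results of these data known. The genes named are the 9 members, NXN, SLC30A1, list genes with an adjusted p under 0.05 without or with the block (at most 3 a list, by smallest p) and the 5 features most like the metallothionein sum with a mean of at least 1 CPM.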

Additional observations from a re-analysis of the deposited data

How the results depend on the processing

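In edgeR without a block, 477 features passed and 0 members. DESeq2 gave 3311 features, RLE factors 826, scaling by library size 929, the absence of a filter 818 and a filter of at least 10 counts in every library 576, with 236 and 20 in limma on log2(FPKM + 1) and log2(FPKM + 0.1), 3272 with the replicate block, 6 with GC correction (5 when median centred), 5 with GC and length correction, and 152 with block and GC correction (100 when median centred). Leaving out 1 library gave from 0 to 3706. Under each of these 19 alternatives 0 members passed. MT2A and MT1X stayed above 0 in all 19, from 0.06 to 0.82 (adjusted p from 0.063 to 0.888) and from 0.27 to 1.01 (adjusted p from 0.079 to 0.647) on the log2 scale. MTF1 was above 0 in 17 and reversed on FPKM, to -0.12 with a pseudocount of 1 and -0.14 with 0.1 (limma, adjusted p = 0.735 and 0.757). The summed metallothionein difference of 0.68 fell to 0.19 with GC correction, 0.37 when that was median centred and 0.12 with GC and length correction, and ran from 0.48 to 0.86 with 1 library left out. The day test passed 0 features, or 68 after GC correction, and 0 members in either. The replicate block changed no member's call. MT2A and MT1X had between 24 and 170 counts a library, so their levels carry counting error, whose share of the spread between libraries was not computed. The 6 other metallothioneins were below what this depth can compare.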

Other observations

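Copper handling was examined because metallothioneins also bind copper. Of 10 genes tested, 0 passed in edgeR without the block (4 at an unadjusted p under 0.05, against 32.9% of features). With the block 1 was lower, against 17.0% of features. DESeq2 called 2 lower and 1 higher (17.1% and 6.88% of features), and the median log2 fold change was -0.06. The gene called lower with the block was ATP7A, the copper-exporting ATPase mutated in Menkes disease. ATP7A was at 24.1, 27.1 and 38.6 CPM in shControl cells on days 7, 9 and 11 and at 5.48, 4.35 and 16.9 CPM in shNXN cells. The day 11 library was the highest in each group. Its log2 fold change was -1.75 (SE 0.52, edgeR adjusted p = 0.0825, 0.0206 with the replicate block) and -0.82 after the centred GC correction (edgeR adjusted p = 0.23). The GC content of its longest transcript was 38.9%.

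Glucocorticoid-induced genes were examined because glucocorticoids raise metallothioneins. Of 9 genes, 8 were tested and 0 passed in edgeR without or with the block or in DESeq2, against 3.39%, 23.3% and 24.0% of features. At an unadjusted p under 0.05 in edgeR it was 0 and 2 of the 8, against 32.9% of features without the block and 6436 of 14071 with it. The median log2 fold change was -0.04 without the block and 0.05 with it. After the centred GC correction the median was 0.29 without the block and 0.17 with it, and 0 of the 8 passed in either edgeR fit. At an unadjusted p under 0.05 it was then 0 and 3 of the 8, against 17.4% and 22.1% of features.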
